A study of Mus musculus with 10 samples.

Results

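The genes described here are 10 surface molecules with which T cells receive costimulation, receive inhibition or show that they have been activated: Cd28, Cd27, Cd226, Cd40lg, Cd69, Cd44, Cd96, Btla, Cd200 and Cd274. They were chosen by name, not by their values, and are 10 of the 20617 genes in the deposited table. All 10 were among the 20249 genes tested, those whose mean reached 1 normalized count.

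A T cell that meets its antigen needs a second, costimulatory signal before it divides and makes cytokines. CD28 and the tumour necrosis factor receptor family member CD27 deliver such signals, while BTLA and the ligand of PD-1 restrain them. CD69 appears on the surface soon after stimulation, and CD44 is kept at a high level by cells that have met antigen before.

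The question was whether the RNA of these molecules in spleen T cells differed after experimental asthma. All mice were Nf1OPG mice, a model of optic glioma in neurofibromatosis type 1, which carry 1 germline mutant Nf1 allele in every cell and lose the other allele in neuroglial progenitors through GFAP-Cre. The Cre is directed at neuroglial progenitors, so that both groups of T cells share the heterozygous Nf1 background. The OVA group (5 libraries, replicates 6 to 10) was sensitized with chicken ovalbumin at 16 µg/mL with aluminum hydroxide at 2 mg/mL, injected into the peritoneum as 0.5 mL once a week for 2 weeks, and was then given ovalbumin through the nose. The PBS group (5 libraries, replicates 1 to 5) received saline. The age at collection is not given in the labels. The cells are labelled as CD3+ T cells of the spleen, and the labels also name CD4 and CD8a isolation kits. No label says whether each library is 1 mouse or a pool, so the p-values measure the spread between these libraries.

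The unit is the normalized count, that is, reads per gene divided by a size factor for each library. Between 6835696 and 23130017 reads were recovered in the PBS libraries and between 14711683 and 29915782 in the OVA libraries, and PBS replicate 3 was the smallest library. The members were covered by between 80 reads (Cd274 in PBS replicate 3) and 8146 reads (Cd28 in OVA replicate 7).

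The names in the deposited table do not keep step with the values, so each gene's values were read 3 rows above its name. With that reading, 10 T cell markers (the CD3 chains with Cd247, Cd4, Cd8a, Cd8b1, Cd2, Cd5 and Cd6) had a median expression percentile of 98.7, with a range of 96.8 to 99.4. At every other distance from 0 to 6 rows their median lay between 70.4 and 85.1. An alignment of all rows to the annotation, which used no treatment groups, also placed each of the 10 members at 3 rows, with a probability of at least 0.999. The row that carries the name Cd27 holds, by this reading, the values of Cd28, and the row named Cd4 holds those of Cd44.

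**Figure D1:**
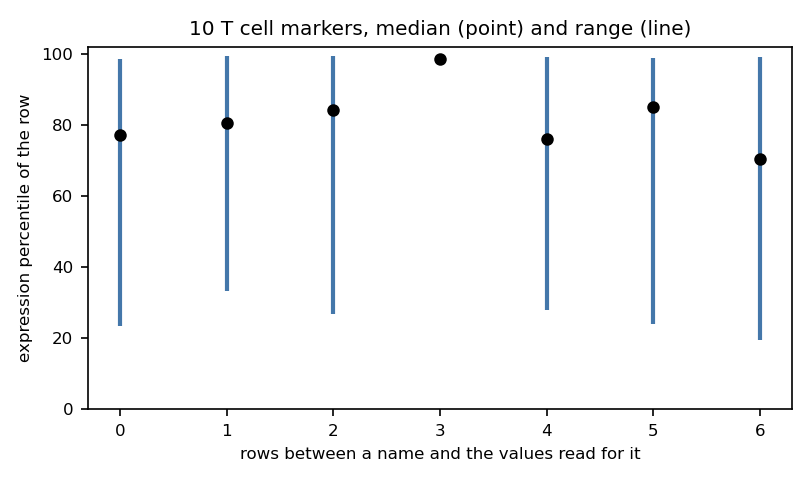
The x axis gives the number of rows between a gene name and the values read for it, and the y axis the expression percentile of that row among all rows. Points are the median and lines the range of 10 T cell markers. At 3 rows all 10 markers lie between 96.8 and 99.4, and at the other distances the lines reach down to 33.4 or less.

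By this reading markers of the labelled cell type were detected in every library. They are the 10 markers used above to examine the row distance, so their level is not a separate check of the cell type. The summed T cell markers were 106161 ± 24608 normalized counts in PBS and 104376 ± 14441 in OVA (SD, n = 5 each), with a range of 73170 to 137392 in PBS and 86839 to 121112 in OVA. In bulk RNA, fewer cells of a type and less RNA per cell cannot be told apart.

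None of the 10 genes passed the test between OVA and PBS. The log2 differences ran from -0.42 (Cd69) to 0.15 (Btla). With limma, 0 of 10 passed an adjusted p of 0.05, against 0.00494% of all genes tested (1 of 20249), and 0 of 10 had an unadjusted p under 0.05, against 9.77% of all genes. With DESeq2 on the recovered reads, 0 of 10 passed the adjusted threshold, against 0.825% of all genes. At an unadjusted p under 0.05, edgeR and DESeq2 each gave 1 of 10, Cd69, against 9.06% and 9.27% of all genes, so that the members' share was near the background. For 0 of 10 genes were the groups separate, whereas all OVA libraries lay above all PBS libraries for 1.42% of genes and below them for 0.356%.

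The intervals show how large a difference these libraries leave room for. The 95% interval of the fold change lay within 1.5-fold in either direction for 9 of 10 genes, all but Cd69, and within 2-fold for 10 of 10. The estimate was above 0 for 6 genes and below 0 for 4. The median size of the log2 difference was 0.08 among the members, 0.25 over all genes tested and 0.16 over the 9808 genes whose mean reached 100.

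**Figure D2:**
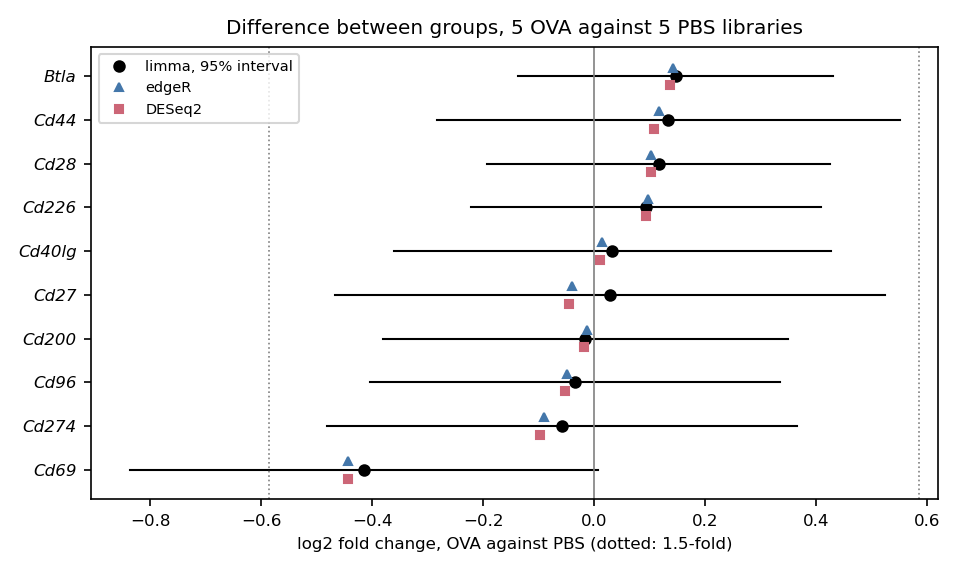
The x axis is the log2 fold change of OVA against PBS, and each line is 1 gene with its limma estimate (point) and 95% interval (line), beside the edgeR and DESeq2 estimates. All 10 intervals include 0, and that of Cd69 extends furthest to the left, to -0.84.

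Among the receptors that give a positive signal, CD28 is the main costimulatory receptor of naive T cells and binds CD80 and CD86. Cd28 was at 4309, 4054, 3705, 5051 and 6008 normalized counts in PBS replicates 1 to 5 and at 4695, 5099, 5651, 5197 and 4182 in OVA replicates 6 to 10. The groups overlapped, and the highest and the lowest library were both PBS libraries. The means were 4626 ± 917 in PBS and 4965 ± 554 in OVA (SD, n = 5), and the OVA-to-PBS difference on the log2 scale was 0.12 (limma SE 0.14, adjusted p = 0.825).

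CD27 is held by naive and memory T cells and binds CD70. Cd27 was at 6274, 3723, 2030, 3449 and 3669 normalized counts in PBS and at 2868, 4595, 3923, 3337 and 3846 in OVA. PBS replicate 1 was the highest and PBS replicate 3 the lowest of all libraries, so that the OVA values lay wholly inside the range of PBS. The coefficient of variation was 40.03% in PBS and 17.5% in OVA, the widest PBS spread of the 10 genes. The OVA-to-PBS difference on the log2 scale was 0.03 (limma SE 0.23, adjusted p = 0.978), and below 0 with edgeR (-0.04) and DESeq2 (-0.04).

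CD226, also called DNAM-1, activates T cells and NK cells when it binds the nectin family members PVR and NECTIN2. Cd226 was at 1030, 882, 972, 1307 and 1117 normalized counts in PBS and at 1095, 1108, 1298, 1296 and 874 in OVA. Its values overlapped throughout, and it was the one gene of the 10 whose coefficient of variation was not larger in PBS (15.2% against 15.4% in OVA). The OVA-to-PBS difference on the log2 scale was 0.09 (limma SE 0.15, adjusted p = 0.871).

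CD40LG is the ligand that activated helper T cells present to CD40 on B cells and dendritic cells. Cd40lg was at 589, 353, 579, 650 and 675 normalized counts in PBS and at 445, 643, 628, 609 and 541 in OVA. PBS replicate 2 stood lowest, followed by OVA replicate 6. The means were 569 ± 127 and 573 ± 81.7 (SD, n = 5), a log2 difference of 0.03 (limma SE 0.18, adjusted p = 0.969).

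Of the activation markers, CD69 is a C-type lectin that keeps newly activated cells in the tissue by drawing the exit receptor S1PR1 from the surface. Cd69 was at 4431, 3401, 2110, 4063 and 4238 normalized counts in PBS and at 2807, 2549, 3449, 2560 and 2056 in OVA. All 5 OVA libraries lay below the PBS median, but PBS replicate 3 lay below 4 of them, so that the groups overlapped. The means were 3649 ± 943 in PBS and 2684 ± 507 in OVA (SD, n = 5), a fold of 0.750 with a 95% interval of 0.560 to 1.00.

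That difference of -0.42 on the log2 scale (SE 0.20) was the largest of the 10 genes and did not pass the test, with a limma adjusted p of 0.516 and an exact two-sided permutation p of 0.119. DESeq2 gave -0.44 with an adjusted p of 0.456, and edgeR -0.44 with an adjusted p of 0.535. Without PBS replicate 3, the smallest library, it was -0.60 with a limma adjusted p of 0.209. With each library scaled to its summed T cell markers, a scaling added after the values were seen, it was -0.41 with a limma adjusted p of 0.611.

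CD44 binds hyaluronan and is abundant on effector and memory T cells. Cd44 was at 1566, 1418, 2947, 2056 and 1728 normalized counts in PBS and at 2408, 1554, 1819, 2526 and 2144 in OVA. PBS replicate 3 was the highest library, whereas it was the lowest PBS library for Btla, Cd27, Cd28, Cd69 and Cd96. The means were 1943 ± 609 and 2090 ± 404 (SD, n = 5), a log2 difference of 0.13 (limma SE 0.19, adjusted p = 0.857).

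Among the molecules that restrain T cells, CD96 shares the ligand PVR with CD226. Cd96 was at 2159, 1885, 1130, 1820 and 1645 normalized counts in PBS and at 1708, 1751, 2055, 1336 and 1488 in OVA. The PBS libraries held both the highest and the lowest value. The OVA-to-PBS difference on the log2 scale was -0.03 (limma SE 0.17, adjusted p = 0.964).

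BTLA is an inhibitory receptor that binds TNFRSF14, also called HVEM, and is found on T cells and B cells. Btla was at 728, 719, 612, 722 and 883 normalized counts in PBS and at 760, 889, 873, 816 and 705 in OVA. It had the smallest standard error of the 10 genes, and 4 of the 5 OVA libraries lay above the PBS median. The means were 733 ± 96.9 and 809 ± 77.2 (SD, n = 5), and the OVA-to-PBS difference on the log2 scale was 0.15 (limma SE 0.13, adjusted p = 0.749, 95% interval -0.14 to 0.43).

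CD200 is a ligand that restrains myeloid cells carrying CD200R1. Cd200 was at 705, 467, 532, 426 and 549 normalized counts in PBS and at 522, 471, 428, 533 and 691 in OVA. The highest value of each group, 705 and 691, stood above the rest of its group. The OVA-to-PBS difference on the log2 scale was -0.02 (limma SE 0.17, adjusted p = 0.985).

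CD274, also called PD-L1, is the ligand of the inhibitory receptor PD-1. Cd274 was at 343, 170, 222, 190 and 251.7 normalized counts in PBS and at 200, 252.2, 203, 213 and 232 in OVA. It was the lowest of the 10 genes, at the expression percentile 64.3, and its OVA values lay inside the range of PBS. The means were 235 ± 67.8 and 220.0 ± 22.0 (SD, n = 5), a log2 difference of -0.06 (limma SE 0.20, adjusted p = 0.945).

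**Figure D3:**
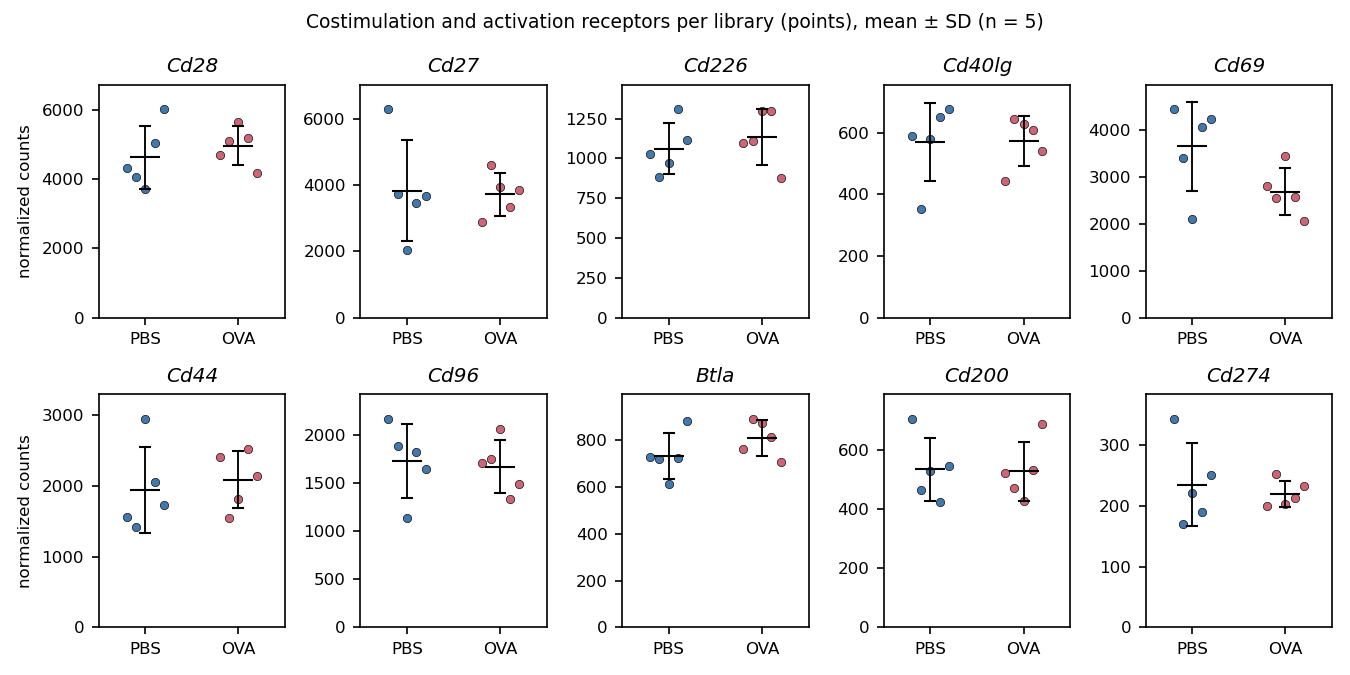
Each panel shows the normalized counts of 1 gene on a linear axis from 0, with 1 point per library (blue PBS, red OVA) and the mean ± SD of 5 libraries as a black mark. The groups overlap in all 10 panels, and the OVA points of Cd69 lie between 2056 and 3449, against 2110 to 4431 in PBS.

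The coefficient of variation was larger in PBS than in OVA for 9 of 10 genes. The share over all genes was not computed, and genes measured in the same libraries are not independent. PBS replicate 1 held the highest PBS value for 5 genes (Cd27, Cd69, Cd96, Cd200 and Cd274) and PBS replicate 3 the lowest for 5. These replicates also had the highest (137392) and the lowest (73170) sum of T cell markers. Divided by the summed T cell markers of each library, the PBS coefficient of variation was smaller than before for 4 of 10 genes.

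Levels were compared between genes per kilobase of exon, as normalized counts divided by the exonic length in GENCODE M21. Cd27 stood first at 1620 ± 478 (SD, n = 10 libraries of both groups), above Cd28 in 10 of 10 libraries. Cd28 (783 ± 120) and Cd96 (777 ± 144) could not be ordered, since Cd28 was the higher in 5 of 10. Cd69 (486 ± 135) and Cd40lg (457 ± 80.8) followed, with Cd69 above in 6 of 10. Their order differed between the groups, with Cd69 at 561 and Cd40lg at 455 in PBS, and at 412 and 458 in OVA.

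Cd44 came next at 298 ± 72.9 per kilobase, below Cd40lg in 10 of 10 libraries. Btla (227 ± 27.0) and Cd226 (224 ± 33.4) were not separated, with Btla above in 5 of 10. Cd200 was at 160 ± 29.4, and the PD-1 ligand Cd274 was the lowest at 62.8 ± 13.3, below Cd200 in 10 of 10. The lengths count every annotated exon, and isoform use was not analysed here.

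**Figure D4:**
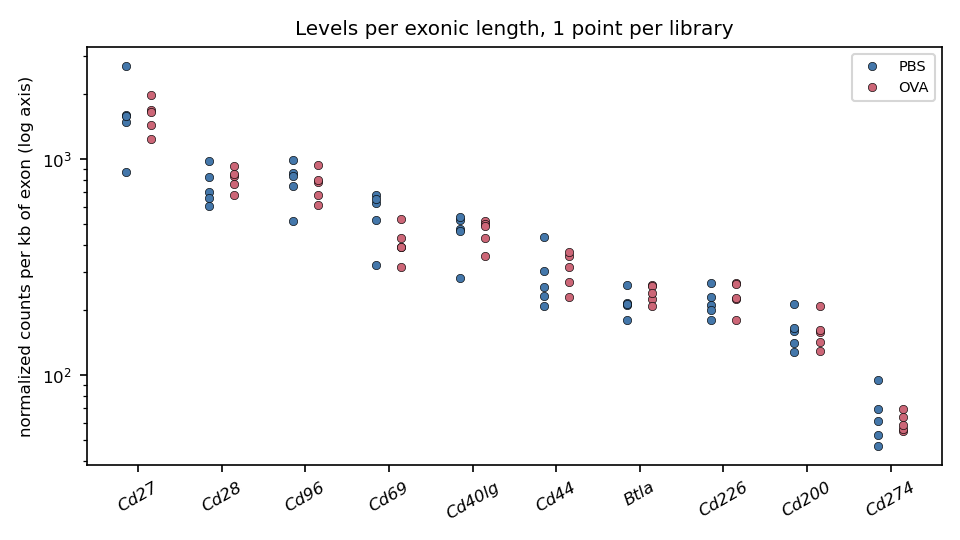
Genes are ordered by their mean level per kilobase of exon, on a log axis, with 1 point per library (blue PBS, red OVA). Cd27 stands highest at a mean of 1620 and Cd274 lowest at 62.8, and the points of Cd28 (605 to 981) and Cd96 (517 to 989) overlap.

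The genes lie at separate loci of the mouse genome (GRCm38), with 2 exceptions. Btla (chr16:45224315-45257671), Cd200 (chr16:45382135-45409054) and Cd96 (chr16:46035657-46120252) lie within 0.896 Mb of chromosome 16. Cd27 (chr6:125232622-125237011) and Cd69 (chr6:129267325-129275437) share chromosome 6 but lie 4030 kb apart. The neighbours on chromosome 16 had log2 fold changes of 0.15, -0.02 and -0.03, in that order.

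The molecules that bind or work with these receptors were described as a list of 61 genes, of which 58 were placed with a probability of at least 0.9 and tested. With limma, 0 of 58 passed an adjusted p of 0.05 and 0 of 58 had an unadjusted p under 0.05, against 9.77% of all genes. In 0 of 58 were the groups separate, against 1.42% of all genes with OVA higher and 0.356% with OVA lower. The median log2 fold change was 0.05, against 0.04 over all genes tested. Il2ra and Il7r were not placed with enough certainty, and Vtcn1 was not analysed here.

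Of the ligands and binding partners, 13 of 14 were tested, with a median log2 fold change of 0.15. Many were near the bottom of the range, and the genes named in this and the following paragraph were picked for their place in the pathway after their values were seen. Cd80 was at 8.60 ± 11.5 normalized counts in PBS and 9.64 ± 3.33 in OVA (SD, n = 5), and Cd70, the ligand of CD27, at 2.48 ± 2.58 and 1.21 ± 1.64. Cd86, the other ligand of CD28, was at 310 ± 111 and 306 ± 50.1. Pvr, the ligand that CD226 and CD96 share, was at 160 ± 27.3 and 161 ± 24.5. These partners are chiefly molecules of antigen-presenting cells.

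Of a list of 28 other T cell surface molecules, which also holds the transcription factor Klf2, 26 were tested, with a median log2 fold change of 0.05. The costimulatory receptor Icos was at 1893 ± 446 normalized counts in PBS and 2176 ± 258 in OVA (SD, n = 5). The receptor of CD274, Pdcd1, which belongs to both lists, was at 1012 ± 425 and 1235 ± 181 (log2 fold change 0.36, limma adjusted p = 0.607). S1pr1, the exit receptor on which CD69 acts, was at 6531 ± 1882 and 7270 ± 1321 (log2 fold change 0.19, limma adjusted p = 0.792). All 20 adaptors downstream were tested, with a median log2 fold change of 0.04, and Malt1, a protease of the NF-kappaB branch, had the smallest unadjusted p of the whole list (log2 fold change 0.54, limma adjusted p = 0.518).

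Markers of other cells that a spleen preparation can hold were summed in the same libraries. The B cell sum (9 of 10 markers placed) was 1535 to 4189 normalized counts in PBS and 1589 to 8093 in OVA, with an exact two-sided permutation p of 0.325. The neutrophil sum (5 of 5) was 355 to 6391 in PBS and 376 to 68874 in OVA (exact permutation p = 0.167). Without OVA replicate 8 its log2 difference was 3.12 (exact permutation p = 0.0159), and without OVA replicate 6 it was 1.24 (exact permutation p = 0.302). Leaving out any library other than OVA replicate 8 gave an exact permutation p of 0.143 to 0.349. No marker of either list was at 0 in all libraries.

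The fibroblast and stromal sum (5 of 6 markers placed) separated the groups, at 9.68 to 41.5 normalized counts in PBS and 66.4 to 118 in OVA. The groups were separate for 2 of its 5 markers, Pdgfrb (means 20.2 in PBS and 58.1 in OVA) and Dcn (0.554 and 20.4). Col1a1 (3.69 and 13.9) also had a higher mean in OVA, but its groups overlapped. Col1a2 (1.58 and 0.250) and Col3a1 (1.22 and 0.626) had lower means in OVA. Their means over all libraries were under the minimum of 1 normalized count, so they were not tested with limma. Dcn was singled out by the study on these same libraries, so its part in the list is not independent evidence. The exact two-sided permutation p of the sum, 0.00794, is the smallest that 5 against 5 libraries can give, and was 0.0794 after adjustment over 10 marker lists. The endothelial sum (4 of 5 placed) was 1980 ± 462 in PBS and 2381 ± 133 in OVA (SD, n = 5), with an exact permutation p of 0.0476, or 0.238 adjusted. The unadjusted p was above 0.05 in 8 of 10 cases when 1 library was left out. Most of that sum was Pecam1 (means 1781 in PBS and 2067 in OVA), followed by Cd34 (193 and 306). Cdh5 (4.54 and 5.67) and Emcn (1.26 and 3.39) were at low counts. For each of the 4 the groups overlapped. The macrophage, dendritic cell, NK cell, erythroid and platelet sums had exact permutation p-values of 0.802, 0.722, 0.905, 0.198 and 0.270. That of the platelet sum, which had the lower mean in OVA (287 in PBS and 198 in OVA), was 0.0238 without PBS replicate 5. Its markers did not share a direction. Pf4 (means 207 and 90.6) and Gp9 (21.5 and 17.3) were lower in OVA, and Ppbp (6.89 and 11.7) and Itga2b (51.7 and 78.0) higher. The part of these cells in the values of the 10 receptors was not tested.

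**Figure D5:**
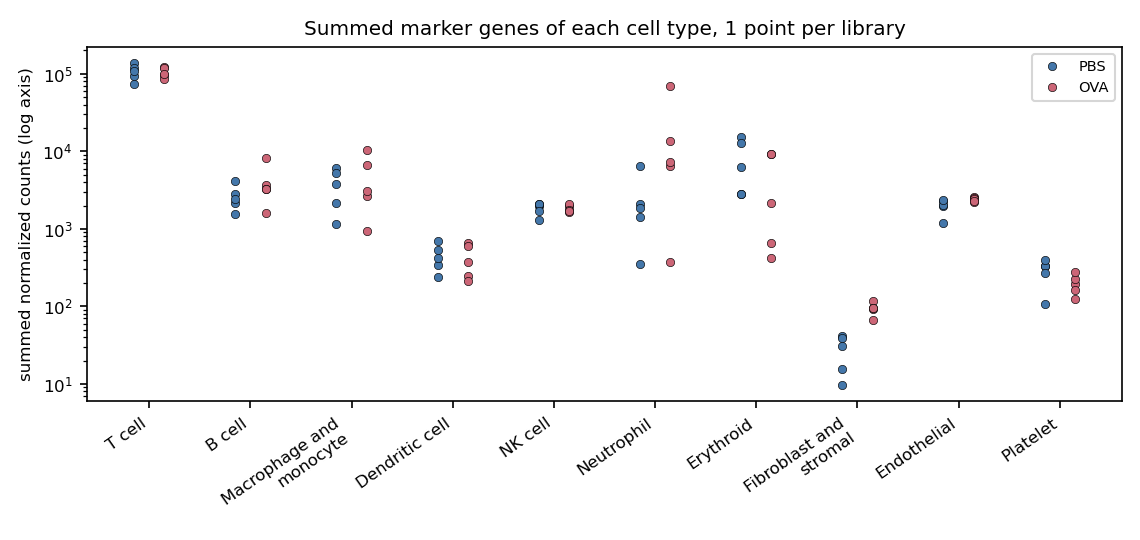
The y axis, on a log scale, is the summed normalized count of the markers of each cell type, with 1 point per library (blue PBS, red OVA). The T cell sum lies between 73170 and 137392 in all libraries, and only the fibroblast and stromal sum has groups that do not overlap.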

How the data were processed

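RNA libraries of Nf1OPG spleen CD3+ T cells (5 PBS, 5 OVA) were analysed. The authors aligned reads with STAR 2.6.1d to the Ensembl release 99 assembly (build mm10 in the submitters' processing notes), obtained gene counts with Partek Flow 9.0 and scaled them by a median-ratio factor per library, so that the deposited values are a signal, normalized counts. Within each library at least 99.9% of values were within 0.1 of a whole multiple of 1 step, from which reads were recovered.

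The table's names are out of step with its values. Values of the members were read 3 rows above their names, and all rows were placed by a hidden Markov model against GENCODE M21, which holds 97.7% of the names. In a table simulated from the placed levels of all rows, it placed 97.7% of 20597 rows exactly. That simulation takes the placement as given, so it cannot show whether the placement of the real rows is right. Genes outside the members were used only at a placement probability of at least 0.9, which 91.2% of rows reached.

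The 20249 genes whose mean reached 1 were compared with limma 3.58.1 (R 4.3.3), trend option on, using log2(normalized counts + 1). P-values were adjusted over all of them (Benjamini-Hochberg). A fold change is on this scale, which understates that of low genes. Single values were compared by exact two-sided permutation over all assignments of 5 against 5 libraries. On simulated data for this comparison with 20249 genes, limma recovered 36% of changes of 1 and 100% of changes of 2 on the log2 scale. For changes of 1, edgeR recovered 44% and DESeq2 47%. Among genes simulated without a change, limma called 5, edgeR 3 and DESeq2 18. The changed genes were drawn only from those above a higher minimum mean than 1. The simulation gave every gene the same dispersion, so the recovered shares and the false calls need not hold for the members. edgeR 4.0.16 and DESeq2 1.42.0 on recovered reads, pseudocounts of 0.1 and 0.5, other minimum means, quantile and equal-total scaling, array weights, other row distances and each library left out were the alternatives. Scaling to the T cell marker sum, and 4 ratios between genes, were added after the values were seen. Of these ratios 1 is not reported here. All members were named; of the partner list, genes called or with the largest changes among separate groups were to be named, and there were 0. The members and lists were chosen with earlier results of these data known. Python 3.11.15 drew the figures.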

Additional observations from a re-analysis of the deposited data

Results flagged for a closer look

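No member was flagged in either group. Of 40 groups of 5 libraries examined for a library apart from the rest, 2 were flagged, and about 1 in 20, or 2.0, would be by chance. Both were neutrophil marker sums. In PBS, replicate 2 was at 6391 normalized counts, against a median of 1646 in the other PBS libraries, and its gap to the nearest library was 0.713 of the group's range. In OVA, replicate 6 was at 68874, against a median of 6861 in the other OVA libraries, with a gap of 0.807 of the range. PBS replicate 2 held the lowest PBS value for Cd40lg, Cd44, Cd226 and Cd274.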

How the results depend on the processing

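The count of members called was 0 under each of 21 alternatives, as was that of the partner list, and the count of members with separate groups was 0 under each of 13. The count at an unadjusted p under 0.05 was 0 in the main comparison. It was 1 (Cd69) with array weights, edgeR, DESeq2 and the T cell marker scaling added after seeing the data. There 12.1%, 9.06%, 9.27% and 6.86% of all genes were called in this way. With each library left out the count was 0 to 1. It was 1 without PBS replicate 3 or OVA replicate 8, against 9.96% and 8.01% of all genes, near the members' share. Of 210 values of single members, 29 changed sign, all of genes that were not called. With array weights Cd27 was -0.0088, Cd40lg -0.086, Cd200 0.063, Cd226 -0.0040 and Cd274 0.00049. Cd27 was -0.041 with edgeR and -0.045 with DESeq2. Quantile scaling gave 0.049 for Cd96 and 0.019 for Cd200, and equal totals, which moved the median of all genes from 0.04 to 0.15, gave 0.078 for Cd96, 0.097 for Cd200 and 0.055 for Cd274. With the names as listed Btla was -2.12, Cd28 -0.048, Cd200 0.25 and Cd226 -1.63. Leaving out each library in turn gave log2 values of -0.18 to 0.23 for Cd27, -0.13 to 0.12 for Cd40lg, -0.18 to 0.054 for Cd96, -0.12 to 0.089 for Cd200, -0.16 to 0.089 for Cd274, 0.08 to 0.22 for Btla, 0.04 to 0.22 for Cd28, 0.03 to 0.30 for Cd44, 0.03 to 0.18 for Cd226 and -0.60 to -0.32 for Cd69. The adjusted p of Cd69 ranged from 0.209 (limma, without PBS replicate 3) to 0.731 (limma, without OVA replicate 9). With the names as listed, which reads another gene's values for Cd69, it was 0.894. Over all genes limma called 1, edgeR 2 and DESeq2 167, and limma 135 without PBS replicate 5. The log2 difference of the T cell sum was -0.0027 in the main comparison. It was 0.11 with equal totals, 0.14 with quantile scaling and 0.029 at 2 rows. With the names as listed the log2 difference of the B cell sum was -0.050, NK cell -0.0046, fibroblast and stromal -0.0077 and endothelial -0.021. In the main comparison these were 0.48, 0.012, 1.90 and 0.30. With a library left out the log2 difference of the T cell sum ranged from -0.13 to 0.10, macrophage -0.22 to 0.65, dendritic cell -0.35 to 0.058, NK cell -0.10 to 0.063, neutrophil 1.24 to 3.12, endothelial 0.13 to 0.38 and platelet -0.79 to -0.32. The causes were not tested. No paired analysis was possible because the groups share no replicate numbers. The fewest reads for a member were 80.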

Other observations

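Ratios between genes of one library do not depend on its scaling. Of all such ratios 4 were looked at, and they were picked after the values of the single genes, including the lower Cd69 and the higher S1pr1 means in OVA, had been seen, so no test is given for any of them. The ratio of Cd69 to S1pr1 was 0.565 ± 0.0675 in PBS and 0.373 ± 0.0626 in OVA (SD, n = 5), and ranged from 0.487 to 0.667 in PBS and from 0.298 to 0.460 in OVA, without overlap. The ratio of Cd226 to Cd96 was 0.640 ± 0.168 and 0.693 ± 0.157, and that of Cd28 to Ctla4 was 16.4 ± 5.97 and 17.4 ± 3.30, and both overlapped between the groups. Neither Cd69 nor S1pr1 passed the test on its own, and a ratio chosen in this way would need libraries that were not used to choose it.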
